A study of Mus musculus with 9 samples.

Results

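The DNA replication machinery is described here by 42 genes for origin licensing, the replicative helicase, the DNA polymerases, the sliding clamp and its loader, single-strand binding, Okazaki fragment maturation and entry into S phase, out of 23936 named genes in the expression table. The members were listed by function and matched by gene symbol, and all 42 were found. RNA sequencing covered 9 libraries of OT-I CD8+ T cells, mouse T cells with a transgenic T cell receptor for a peptide of ovalbumin presented by MHC class I. The 3 groups were naive cells from the spleen, spleen-primed cells from the spleen (titled ivspleen) and MLN-primed cells from the mesenteric lymph node (MLN; titled oralmln), with 3 libraries each. Every group carried the same OT-I receptor, and the organ and the title words for the route changed together between the primed groups, so organ and route cannot be told apart. Between MLN-primed and naive cells the organ changed together with priming, so these cannot be told apart there either. The time after priming, the priming agent, the gate, the strain, the age of the mice and any pooling of animals are not given in the sources that were used here. Nothing in the labels ties the libraries to separate animals, and a p-value here measures spread between libraries, part or all of which may be technical.

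Before DNA can be copied, the origin recognition complex, Cdc6 and Cdt1 load the MCM helicase ring onto origins, a step called licensing that geminin blocks once S phase has begun. Cdc45 and the GINS complex then turn the loaded ring into the active helicase, polymerases alpha, delta and epsilon copy both strands, and the clamp PCNA, placed by the RFC loader, keeps the polymerases on the template. Many of these genes are targets of E2F transcription factors, which are held in check in resting cells and released when cyclin-dependent kinases, including those bound to cyclin E, act on the retinoblastoma proteins. A naive T cell rests outside the cell cycle, and antigen drives it into rapid division.

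All values are FPKM, fragments scaled by transcript length and by the fragments mapped in the library, as the authors deposited them. The read depth is unknown and total FPKM ran from 612887 to 720165 per library, so no counting error can be given. All 10 genes of the CD8 T cell identity list were detected, with summed levels of 4856 to 5148 FPKM in the naive, 4089 to 4133 in the spleen-primed and 2808 to 2990 in the MLN-primed libraries. Markers of other cell types were mostly low. In every library 6 of 8 B cell, 6 of 8 dendritic cell, 7 of 9 epithelial and stromal, 3 of 5 plasma cell, 4 of 9 myeloid, 4 of 7 erythroid, 2 of 4 CD4 T cell and 3 of 6 NK cell markers stayed under 1 FPKM. Summed dendritic cell markers ran from 43.4 to 79.2 FPKM in naive and from 1.52 to 3.97 in primed libraries, myeloid markers from 5.94 to 46.2 in naive, 45.2 to 48.4 in spleen-primed and 15.4 to 18.5 in MLN-primed libraries. The primed myeloid sums were mostly Itgam (28.7 to 32 FPKM in spleen-primed, 7.63 to 10.2 in MLN-primed libraries) and Cd68 (13.6 to 17.4 and 7.21 to 8.24). Lyz2 was at 2.12 to 9.75 FPKM in naive and 0.125 to 1.7 in primed libraries, and S100a8 at 1.82 to 19.6 and 0 to 0.154. Summed NK cell markers, led by Nkg7, a gene also active in effector CD8 T cells, were at 450 to 476 FPKM in naive, 1543 to 1746 in spleen-primed and 917 to 972 in MLN-primed libraries. The part of these cells in the results below was not tested. In bulk RNA, more cells in cycle and more RNA per cycling cell cannot be told apart.

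Replication transcripts rose in both primed groups. Against naive cells, 41 of the 42 members were higher in spleen-primed cells and 0 were lower, and in MLN-primed cells 42 were higher and 0 lower (limma on log2(FPKM + 1), adjusted p of at most 0.05; 0 lower also at an unadjusted p of 0.05). Among all 10185 genes tested, 43.1% were higher and 32.7% lower in spleen-primed cells, and 45.5% were higher and 33.2% lower in MLN-primed cells. The median log2 change of the members was 2.63 in the spleen-primed and 2.90 in the MLN-primed group, where the medians of all genes tested were 0.10 and 0.15. Both comparisons share the same 3 naive libraries. Scaling shifted these backgrounds, since median-of-ratios scaling moved the median of all genes by -0.11 and -0.16 and quantile normalisation by -0.13 and -0.16. Under quantile normalisation 34.8% of all genes were higher and 40% lower in spleen-primed cells, while 41 members stayed higher there. Mcm10, Cdc6, Gins1, Orc1 and Ccne2 had a naive mean under 1 FPKM. All of these but Gins1 passed the filter on low values only through the primed groups, so they had to differ from naive. Gins1 reached 1 FPKM in naive 3 alone and needed primed libraries to pass as well, which favoured a rise. Of the other 37 members, 36 were higher in the spleen-primed and 37 in the MLN-primed group, with medians of 2.58 and 2.86. The summed FPKM of all members ran from 648 to 702 in the naive, from 3674 to 3867 in the spleen-primed and from 4316 to 4596 in the MLN-primed libraries.

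The primed groups differed from each other by far less, and every difference that passed was higher in MLN-primed cells. Between MLN-primed and spleen-primed cells 22 of 42 members were higher in MLN-primed cells and 0 lower, beside 17.3% of all genes tested higher and 13.1% lower (limma; 25 higher and 0 lower at an unadjusted p of 0.05). The median log2 difference of the members was 0.26, against 0.03 for all genes tested, and single members ran from -0.09 for E2f2 to 0.69 for Ccne1. The 3 MLN-primed values lay above the 3 spleen-primed values for 28 members, below them for 0, and overlapped for 14, while among all genes 25.1% lay wholly above and 21% wholly below. All 3 origin recognition members, both loading factors, all 6 subunits of the MCM ring, geminin and both cyclin E genes were among the 22. Of the 3 RPA members, the 2 polymerase epsilon members, the 2 Okazaki maturation members and the clamp gene Pcna, 0 passed. Their differences were positive as well, from 0.01 for Rpa2 to 0.30 for Lig1, which exceeded the 0.24 to 0.27 of Mcm3 to Mcm7. The count moved with the scaling and with single libraries. Under median-of-ratios scaling, which moved the median of all genes by -0.05, 11 members were higher and 0 lower, and without spleen-primed 2 the count was 13 and without MLN-primed 2 it was 15. Mcm2, Cdc6, Orc1, Orc2, Rfc3, Pola2, Pold2 and Ccne1 were called in all 20 alternative fits.

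**Figure D1:**
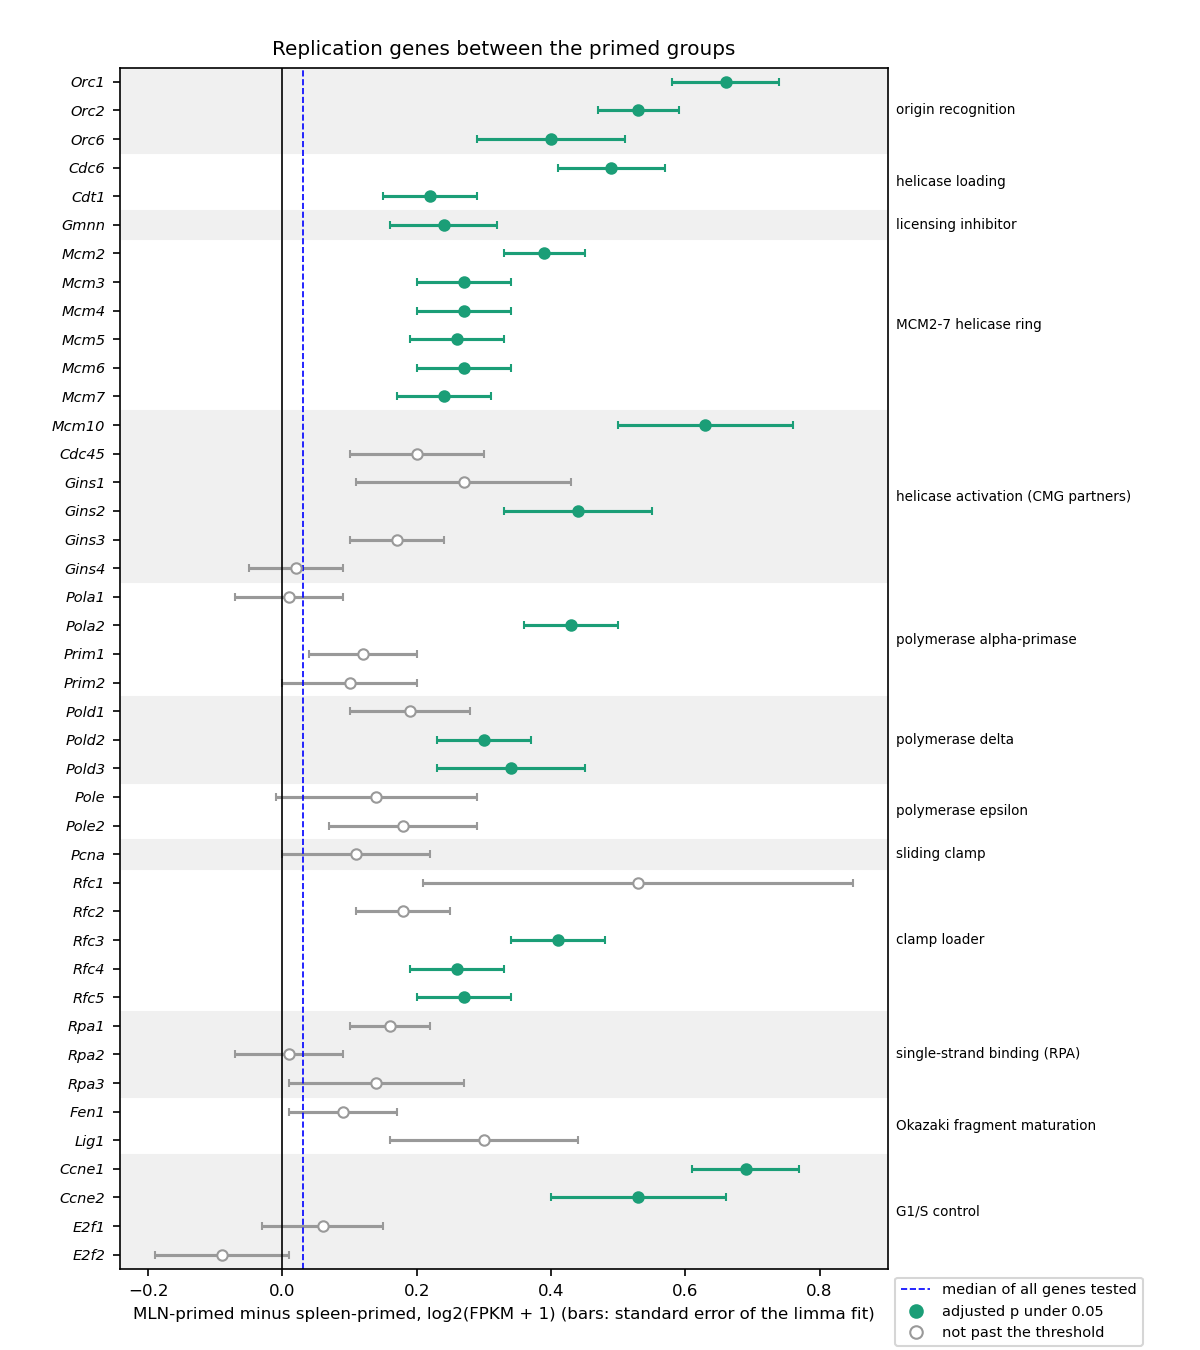
Difference between MLN-primed and spleen-primed cells for each of the 42 replication genes, grouped by role, on the log2(FPKM + 1) scale, with the standard error of the limma fit as bars. Filled points mark the 22 genes past an adjusted p of 0.05, all to the right of 0, and the dashed line at 0.03 is the median of all genes tested.

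Promoter sequences were set beside these changes because E2F sites are a known feature of replication genes. RefSeq windows of 300 bases on GRCm38.p6, from 250 bases before to 50 bases after the annotated start, were found for 33 of the 42 members. Gins1, Prim2, Gins2, Rfc2, Pole, Gins4, Ccne2, Mcm4 and Gmnn were not matched. The E2F sequences TTTCCCGC, TTTGGCGC, TTTCGCGC and TTTGCCGC were searched on both strands. At least 1 of them stood in the windows of 15 of the 33 members, 45.5%, against 5.26% of the 8247 tested genes with a window and 2.6% of all 27025 genes in the promoter table. The CHR sequence TTTGAA, known from genes of G2 and mitosis, stood in 6 of the 33, or 18.2%, against 14.6% and 20.2%. The windows below belong to the 5 members with an E2F match that had the smallest adjusted p between spleen-primed and naive cells, with the matches in capitals, each read 5′ to 3′ along its gene. They lie at chr8:75109259-75109558, plus strand (Mcm5), chr11:98907901-98908200, plus strand (Cdc6), chr5:151651159-151651458, minus strand (Rfc3), chr1:20820263-20820562, minus strand (Mcm3) and chr4:136172024-136172323, plus strand (E2f2). The start used for the window lies 442 bases inside the gene position given below for Cdc6 and 41 bases inside that for Mcm5, and the other 3 coincide. The whole Cdc6 window, its match included, therefore lies inside that gene position, and the bases before the position were not searched. A match is a description of letters and does not show that a factor binds.
Mcm5: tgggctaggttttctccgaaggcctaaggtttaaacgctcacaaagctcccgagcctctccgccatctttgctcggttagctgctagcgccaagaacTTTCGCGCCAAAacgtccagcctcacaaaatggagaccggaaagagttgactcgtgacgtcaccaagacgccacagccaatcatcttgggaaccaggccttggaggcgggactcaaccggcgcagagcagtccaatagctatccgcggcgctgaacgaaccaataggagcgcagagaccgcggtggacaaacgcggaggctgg
Cdc6: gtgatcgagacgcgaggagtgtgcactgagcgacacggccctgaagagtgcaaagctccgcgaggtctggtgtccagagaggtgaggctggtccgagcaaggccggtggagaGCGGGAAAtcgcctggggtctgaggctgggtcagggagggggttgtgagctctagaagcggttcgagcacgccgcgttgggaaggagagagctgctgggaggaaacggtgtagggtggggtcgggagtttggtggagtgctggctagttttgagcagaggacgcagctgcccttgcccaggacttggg
Rfc3: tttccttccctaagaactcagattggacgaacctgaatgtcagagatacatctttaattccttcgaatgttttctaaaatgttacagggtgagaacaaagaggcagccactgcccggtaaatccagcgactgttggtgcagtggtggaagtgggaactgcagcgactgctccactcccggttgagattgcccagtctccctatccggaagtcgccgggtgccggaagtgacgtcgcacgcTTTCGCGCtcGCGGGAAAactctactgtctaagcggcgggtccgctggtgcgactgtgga
Mcm3: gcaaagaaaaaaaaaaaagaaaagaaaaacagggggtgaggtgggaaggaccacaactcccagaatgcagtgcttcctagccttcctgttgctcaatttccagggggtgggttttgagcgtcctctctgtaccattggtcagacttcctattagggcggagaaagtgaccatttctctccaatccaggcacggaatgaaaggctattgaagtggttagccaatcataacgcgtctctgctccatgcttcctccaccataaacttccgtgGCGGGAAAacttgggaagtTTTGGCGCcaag
E2f2: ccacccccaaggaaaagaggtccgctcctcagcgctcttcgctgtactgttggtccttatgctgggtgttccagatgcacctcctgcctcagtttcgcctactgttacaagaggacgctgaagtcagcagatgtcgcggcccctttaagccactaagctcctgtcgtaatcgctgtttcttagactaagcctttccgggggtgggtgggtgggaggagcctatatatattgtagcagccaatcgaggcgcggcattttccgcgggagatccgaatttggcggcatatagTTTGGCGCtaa

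In the Mcm5 window a pair of matches on opposite strands overlap, beginning at bases 98 and 102 of the 300, so that the capitals form 1 run. Rfc3 and Mcm3 each hold a pair of separate matches close to the annotated start at base 251, at bases 241 and 251 in Rfc3 and at bases 270 and 289 in Mcm3. Cdc6 holds 1 match at base 113 and E2f2 holds 1 at base 290. Members with a match had a median log2 change of 2.94 between spleen-primed and naive cells (n = 15) and those without one 2.54 (n = 18), ranging from 1.56 to 4.20 and from 0.40 to 4.51. Between MLN-primed and spleen-primed cells the medians were 0.26 with and 0.27 without a match.

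Orc1 and Orc2 stood among the largest differences of the members between the primed groups. Of the origin recognition genes in the further lists, Orc3 was higher in MLN-primed cells by 0.32 (adjusted p = 0.0104, limma). Orc4 at 0.23 and Orc5 at 0.12 did not pass. Orc1 (chr4:108575705-108616030 on GRCm38, as for all gene positions here), the subunit of the origin recognition complex whose level moves with the cell cycle, was at 0.207, 0.0691 and 0.156 FPKM in the naive libraries, 10.1, 10.1 and 9.28 in the spleen-primed and 16.7, 16.3 and 15.4 in the MLN-primed ones 1, 2 and 3. The naive libraries were near 0 and every MLN-primed library lay above every spleen-primed one, a log2 difference of 0.66 ± 0.08 (SE, adjusted p = 4.52e-04). Orc2 (chr1:58462771-58505113), a core subunit of the same complex, was already present in naive cells, at 11.4, 11.5 and 11.3 FPKM in the naive libraries, 17.9, 17.7 and 16.7 in the spleen-primed and 26.5, 25 and 25 in the MLN-primed ones. It rose little from naive to spleen-primed cells (0.57 ± 0.06 (SE, adjusted p = 2.14e-05)) and by a similar amount again in MLN-primed over spleen-primed cells (0.53 ± 0.06 (SE, adjusted p = 4.00e-04)), with no overlap between any of the groups. Orc6, the smallest subunit, was at 10.7, 8.01 and 8.21 FPKM in the naive libraries, 60, 54.8 and 51.1 in the spleen-primed and 80.8, 68.9 and 69.9 in the MLN-primed ones. MLN-primed libraries again lay above all spleen-primed ones, by 0.40 ± 0.11 (SE, adjusted p = 0.0246). That call ended without spleen-primed 2 (0.39), spleen-primed 3 (0.34) or MLN-primed 1 (0.33), with the last 2 of these both left out (0.27), and under both median-of-ratios scaling (0.35) and quantile normalisation (0.33). Exons of Orc2 share 29.8% of their bases with Nif3l1 and those of Orc1 10.8% with Gm12743, both on the opposite strand. Whether the authors' counting used strand is not given in the sources that were used here, so the levels of such genes are uncertain. Nif3l1 itself was at 8.62, 7.95 and 7.24 FPKM in the naive libraries, 13, 14.1 and 12.3 in the spleen-primed and 15.1, 13.6 and 13.8 in the MLN-primed ones.

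The loading factors Cdc6 and Cdt1 started from very different naive levels. Cdc6 (chr11:98907709-98923942), the ATPase that brings the MCM ring to the origin, was at 0.248, 0.154 and 0.214 FPKM in the naive libraries, 22.5, 21 and 19.8 in the spleen-primed and 31.9, 29.7 and 28.5 in the MLN-primed ones. The level of Cdc6 was at most 0.248 FPKM in naive libraries and at least 19.8 in primed ones, and it was higher in MLN-primed cells than in spleen-primed ones by 0.49 ± 0.08 (SE, adjusted p = 0.00202). Cdt1 (chr8:122568015-122573130), the partner that escorts the ring and is destroyed in S phase, was at 22.5, 22.5 and 21.8 FPKM in the naive libraries, 64.6, 65.6 and 73.2 in the spleen-primed and 77.3, 82 and 78.6 in the MLN-primed ones. Its rise over naive cells was the smaller of the pair, 1.56 on the log2 scale in spleen-primed cells against 4.20 for Cdc6. The difference of Cdt1 between the primed groups was 0.22 ± 0.07 (SE, adjusted p = 0.0282), and its call ended without spleen-primed 1 (0.19), spleen-primed 2 (0.20), MLN-primed 2 (0.20) or MLN-primed 3 (0.23), and under both median-of-ratios scaling (0.18) and quantile normalisation (0.15). Gmnn encodes geminin, the inhibitor that binds Cdt1 after licensing, and was at 9.28, 8.43 and 7.41 FPKM in the naive libraries, 126, 120 and 122 in the spleen-primed and 153, 142 and 141 in the MLN-primed ones. Primed libraries held 120 to 153 FPKM of it and naive libraries at most 9.28, with a change of 3.72 ± 0.08 (SE, adjusted p = 1.37e-10) in the spleen-primed and 3.97 ± 0.08 (SE, adjusted p = 9.03e-11) in the MLN-primed group. Between the primed groups the difference was 0.24 ± 0.08 (SE, adjusted p = 0.0458). That call was the least stable of the 22, holding in 7 of 20 alternative fits, and ended without naive 2 (0.24), without any single primed library (0.20 to 0.26), with spleen-primed 3 and MLN-primed 1 both left out (0.20) and under both median-of-ratios scaling and quantile normalisation (0.19 in both). The Gmnn call was lost, too, at a pseudocount of 0.1, without the filter on low values and without a trend in the variance (0.24 in each). A processed pseudogene, Gm9430, matches the Cdc6 transcript at 95.223% over 1528 bases, so reads could be split between them.

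All 6 subunits of the MCM ring rose with priming and stood highest in MLN-primed cells. Mcm2 (chr6:88883474-88898780) was at 19.1, 18.7 and 20.9 FPKM in the naive libraries, 115, 117 and 116 in the spleen-primed and 149, 152 and 155 in the MLN-primed ones. Mcm3 (chr1:20802966-20820312) was at 24.7, 23.1 and 27 FPKM in the naive libraries, 196, 203 and 193 in the spleen-primed and 244, 242 and 228 in the MLN-primed ones. Mcm4 (chr16:15623897-15637400) was at 26.7, 23.2 and 22.9 FPKM in the naive libraries, 135, 131 and 139 in the spleen-primed and 164, 171 and 156 in the MLN-primed ones. For each of these subunits all 3 groups stood apart without overlap, naive lowest and MLN-primed highest. Mcm5 (chr8:75109468-75128439) was at 13.2, 13.2 and 14.7 FPKM in the naive libraries, 209, 218 and 197 in the spleen-primed and 263, 239 and 245 in the MLN-primed ones. Mcm6 (chr1:128331575-128359705) was at 41.8, 37.2 and 41.7 FPKM in the naive libraries, 245, 251 and 242 in the spleen-primed and 307, 309 and 278 in the MLN-primed ones. Mcm7 (chr5:138164583-138172111) was at 31.7, 31.8 and 36.7 FPKM in the naive libraries, 217, 224 and 216 in the spleen-primed and 265, 259 and 253 in the MLN-primed ones. The same order held for these 3 subunits, again without overlap. Mcm5 was the lowest subunit in naive cells and had the largest rise of the ring, 3.83 ± 0.07 (SE) in the spleen-primed and 4.09 ± 0.07 in the MLN-primed group, where the other 5 rose by 2.43 to 2.94 and 2.71 to 3.21. FPKM are per length, so subunits were compared within a library, although a trend with transcript length, described with Rfc1 below, still differed between libraries. The highest subunit, Mcm6, exceeded the lowest by 2.83 to 3.15 times in naive, 2.09 to 2.15 times in spleen-primed and 1.79 to 2.06 times in MLN-primed libraries. The lowest subunit was Mcm5 in naive and Mcm2 in primed libraries.

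Between the primed groups Mcm2 differed most among the ring genes, by 0.39 ± 0.06 (SE, adjusted p = 0.00121), and the other 5 by 0.24 to 0.27, with adjusted p-values from 0.0146 for Mcm6 to 0.0258 for Mcm7 (limma). The Mcm2 call held in all 20 alternative fits. The calls of Mcm3 and Mcm6 ended without MLN-primed 2 (0.26 and 0.25), and that of Mcm4 without spleen-primed 1 (0.27), spleen-primed 2 (0.25) or MLN-primed 2 (0.24). The call of Mcm5 ended without spleen-primed 1 (0.26), spleen-primed 3 (0.22), MLN-primed 1 (0.22) or MLN-primed 3 (0.27), and that of Mcm7 without any single primed library (0.22 to 0.25). With spleen-primed 3 and MLN-primed 1 both left out, Mcm3 (0.23), Mcm5 (0.18) and Mcm7 (0.21) did not pass. Under median-of-ratios scaling the differences of Mcm3 to Mcm7 were 0.19 to 0.23 and none of the 5 passed, and under quantile normalisation Mcm3 and Mcm4 did not pass (0.20 in both). Mcm7 has a near copy, the processed pseudogene Gm5487, at 97.682% identity over 2157 bases.

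**Figure D2:**
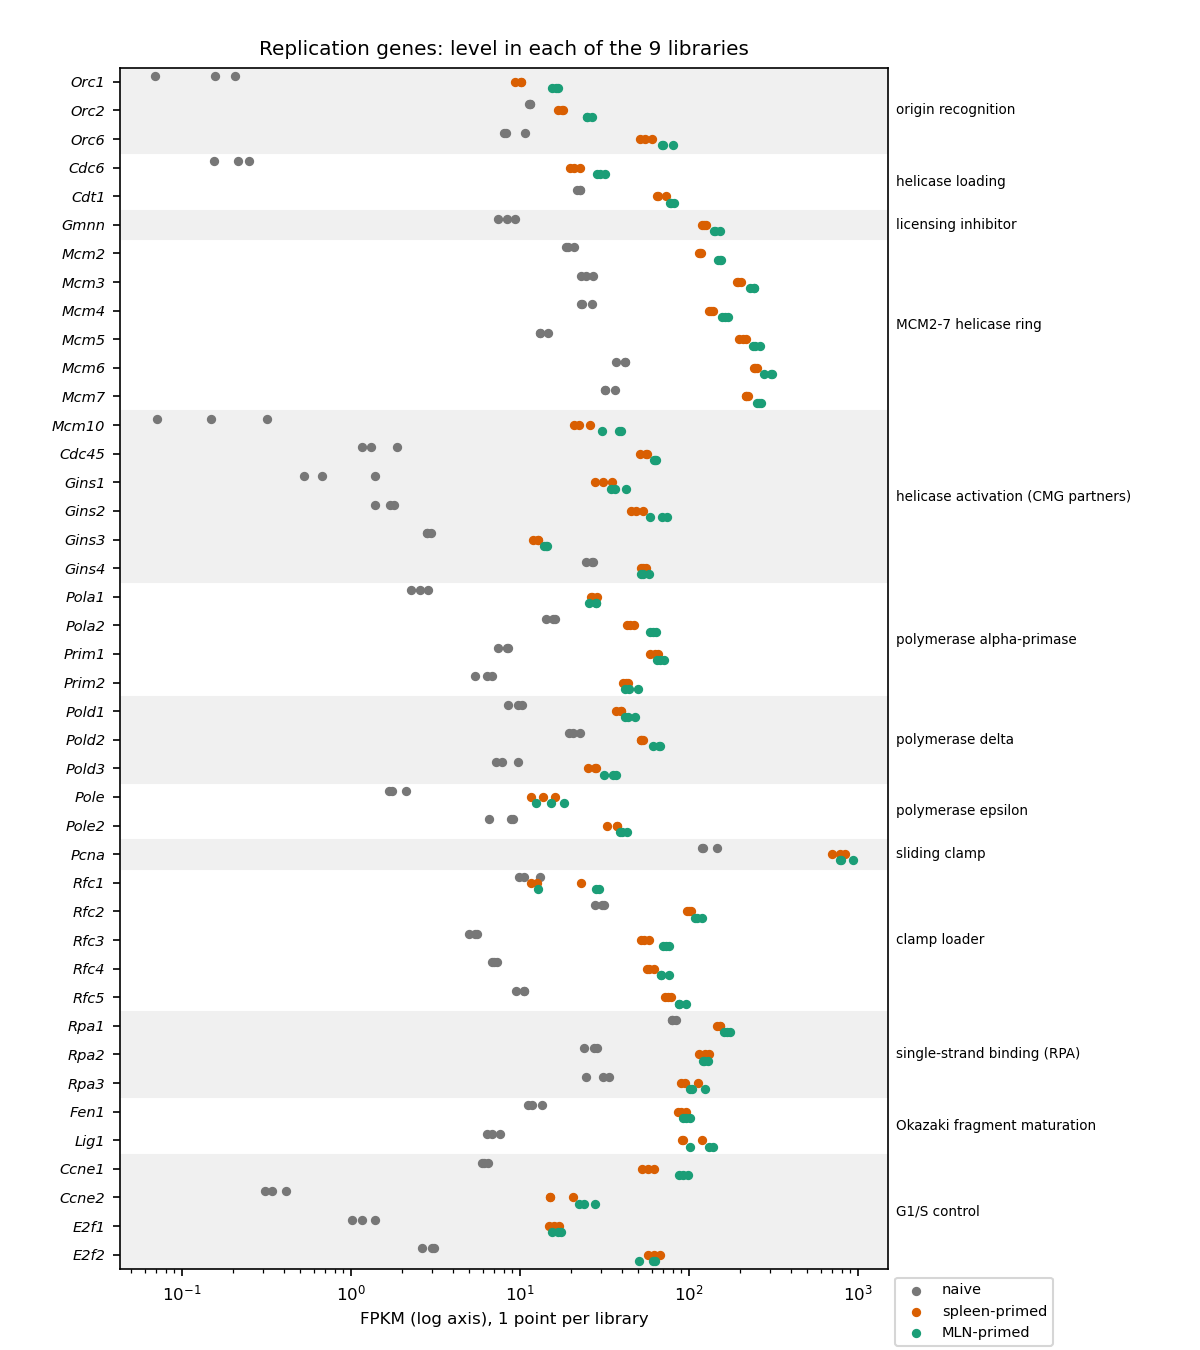
FPKM of the 42 replication genes in each of the 9 libraries on a log axis, 1 point per library, coloured by group and ordered by role. Naive points lie to the left of all primed points for 41 genes, with Rfc1 as the exception, and Pcna is the highest gene in every group.

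Partners that activate the loaded ring rose from very low naive levels, apart from Gins3 and Gins4. Mcm10 (chr2:4990724-5012791), a scaffold needed to start unwinding, was at 0.148, 0.071 and 0.32 FPKM in the naive libraries, 22.3, 20.9 and 25.9 in the spleen-primed and 30.4, 38.5 and 39.6 in the MLN-primed ones. No naive library exceeded 0.32 FPKM, and MLN-primed libraries all lay above spleen-primed ones, by 0.63 ± 0.13 (SE, adjusted p = 0.00542). With a pseudocount of 0.1 in place of 1 that difference was 0.65 and did not pass. Cdc45, the helicase subunit that joins the ring at firing, rose in spleen-primed over naive cells by 4.51 ± 0.10 (SE, adjusted p = 1.94e-10), from 1.45 ± 0.376 FPKM (mean ± SD, n = 3) in naive to 54.5 ± 2.66 in the spleen-primed and 62.9 ± 0.919 in the MLN-primed group. It did not pass between the primed groups (0.20 ± 0.10 (SE, adjusted p = 0.168)), although the values did not overlap, and passed with only the libraries of those groups fitted (0.20). Gins2, a subunit of the GINS complex, was at 1.39, 1.69 and 1.8 FPKM in the naive libraries, 53.4, 48.6 and 45.3 in the spleen-primed and 74.1, 58.6 and 69.4 in the MLN-primed ones. It was higher in MLN-primed cells by 0.44 ± 0.11 (SE, adjusted p = 0.0114), a call that ended only with spleen-primed 3 and MLN-primed 1 both left out (0.32). Exons of Gins2 share 67.3% of their bases with Gse1 on the opposite strand, which was at 10.5, 9.65 and 12.2 FPKM in the naive libraries, 3.48, 3.86 and 9.1 in the spleen-primed and 2.85, 7.91 and 8.73 in the MLN-primed ones. The other GINS genes did not pass between the primed groups, with Gins1 at 0.27, Gins3 at 0.17 and Gins4 at 0.02 on the log2 scale. Gins4 was the GINS gene with the highest naive level, 26.1 ± 1.22 FPKM, beside 0.859 ± 0.454 for Gins1, 1.63 ± 0.216 for Gins2 and 2.85 ± 0.0962 for Gins3. It rose least of the 4 from naive to spleen-primed cells, by 1.01 ± 0.07, beside 4.13, 4.25 and 1.81 on the log2 scale.

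Among the polymerase members, 1 subunit of the alpha and 2 of the delta complex passed between the primed groups. Pola2 (chr19:5940543-5964238), the regulatory subunit of polymerase alpha, was at 16.1, 14.3 and 15.6 FPKM in the naive libraries, 42.7, 45 and 47.3 in the spleen-primed and 58.5, 61 and 63.5 in the MLN-primed ones. The groups did not overlap, and the difference between the primed groups was 0.43 ± 0.07 (SE, adjusted p = 0.00178). The catalytic subunit gene Pola1 was at 2.56 ± 0.298, 27.1 ± 1.19 and 27.3 ± 1.41 FPKM in the naive, spleen-primed and MLN-primed libraries (mean ± SD, n = 3), a difference of 0.01 ± 0.08 (SE, adjusted p = 0.932) between the primed groups. The primase genes Prim1 and Prim2 differed by 0.12 and 0.10 there and did not pass. Pold2, an accessory subunit of the lagging-strand polymerase delta, was at 19.5, 20.7 and 22.7 FPKM in the naive libraries, 51.7, 52 and 53.1 in the spleen-primed and 67.4, 61 and 66 in the MLN-primed ones. Pold3, another accessory subunit, was at 7.87, 7.22 and 9.78 FPKM in the naive libraries, 28.2, 25.4 and 27.9 in the spleen-primed and 31.6, 35.7 and 36.8 in the MLN-primed ones. MLN-primed values of both lay above all spleen-primed values, by 0.30 ± 0.07 (SE, adjusted p = 0.0104) for Pold2 and 0.34 ± 0.11 (SE, adjusted p = 0.0389) for Pold3. The Pold3 call ended (0.29 to 0.37) without spleen-primed 1, 2 or 3 and without MLN-primed 2 or 3, with no filter (0.34), and under both median-of-ratios scaling (0.29) and quantile normalisation (0.27). The catalytic subunit gene Pold1 was at 0.19 and did not pass (adjusted p = 0.123). Nor did the 2 members of the leading-strand polymerase epsilon, Pole at 0.14 and Pole2 at 0.18. Of the epsilon subunit genes in the further lists, Pole3 was higher in MLN-primed cells by 0.51, without overlap (adjusted p = 0.00909, limma). Pole4 was at -0.10 and did not pass. Pole passed with spleen-primed 3 and MLN-primed 1 both left out (0.38).

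The sliding clamp gene was the most abundant member in every group and did not differ detectably between the primed groups. Pcna (chr2:132249286-132253180) encodes the ring that tethers the polymerases to DNA, and was at 146, 121 and 119 FPKM in the naive libraries, 832, 781 and 705 in the spleen-primed and 935, 797 and 781 in the MLN-primed ones. Primed libraries held at least 705 FPKM and naive libraries at most 146, a change of 2.58 ± 0.11 (SE, adjusted p = 1.20e-08) in the spleen-primed and 2.69 ± 0.11 (SE, adjusted p = 6.90e-09) in the MLN-primed group, while the primed groups overlapped (0.11 ± 0.11 (SE, adjusted p = 0.461)). The processed pseudogene Pcna-ps2 matches the Pcna transcript at 99.232% over 781 bases.

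Among the clamp loader genes, the small subunits rose in spleen-primed over naive cells by 1.71 for Rfc2 and by 2.76 to 3.14 for Rfc3 to Rfc5. The large subunit gene Rfc1, with a wide spread, was at 0.40 ± 0.32 (SE) and did not pass. Rfc3 (chr5:151642817-151651208), a small subunit, was at 4.99, 5.54 and 5.43 FPKM in the naive libraries, 58, 54.4 and 52.3 in the spleen-primed and 76.5, 70.2 and 73.3 in the MLN-primed ones. Rfc4, another small subunit, was at 6.84, 7.02 and 7.3 FPKM in the naive libraries, 62.1, 58 and 56.7 in the spleen-primed and 76.5, 68.2 and 68.3 in the MLN-primed ones. Rfc5, also a small subunit, was at 10.6, 9.42 and 10.5 FPKM in the naive libraries, 77.8, 75.3 and 71.6 in the spleen-primed and 96.3, 86.8 and 87.6 in the MLN-primed ones. For each of these 3 genes the groups stood apart in the order naive, spleen-primed, MLN-primed. The differences between the primed groups were 0.41 ± 0.07 (SE, adjusted p = 0.00209) for Rfc3, 0.26 ± 0.07 (SE, adjusted p = 0.0195) for Rfc4 and 0.27 ± 0.07 (SE, adjusted p = 0.0204) for Rfc5. The calls of Rfc4 and Rfc5 ended without spleen-primed 2 (0.25 and 0.27), spleen-primed 3 (0.24 and 0.23) or MLN-primed 1 (0.21 and 0.22), with the last 2 of these both left out (0.18 and 0.19), and under median-of-ratios scaling (0.22 in both), and that of Rfc4 under quantile normalisation (0.19). Rfc2 was at 0.18 and did not pass (adjusted p = 0.0718). Exons of Rfc4 share 12.7% of their bases with Eif4a2, those of Rfc5 10.7% with Wsb2 and those of Rfc2 15.1% with Lat2, all on the opposite strand, and Rfc5 has a near copy in Gm12870 (96.176% over 1020 bases).

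Rfc1, the large subunit, was the only member that did not pass between spleen-primed and naive cells. It was at 9.9, 10.5 and 13.2 FPKM in the naive libraries, 11.6, 12.6 and 22.8 in the spleen-primed and 12.7, 28.3 and 29.5 in the MLN-primed ones. The naive and primed ranges overlapped, with changes of 0.40 ± 0.32 (SE, adjusted p = 0.273) in the spleen-primed and 0.93 ± 0.32 (SE, adjusted p = 0.0219) in the MLN-primed group. The call in MLN-primed cells ended with no filter (0.93), without naive 1 (0.85), naive 2 (0.89), MLN-primed 2 (0.76) or MLN-primed 3 (0.73). Between the primed groups Rfc1 was at 0.53 ± 0.32 (SE, adjusted p = 0.253), and it passed without MLN-primed 1 (0.90) and with spleen-primed 3 also left out (1.19). Across all genes, the primed libraries also differed in a trend with transcript length. Relative to its group, a doubling of length changed log2(FPKM + 1) by -0.0513, -0.0275 and 0.0788 in spleen-primed 1, 2 and 3 and by -0.0890, 0.0630 and 0.0260 in MLN-primed 1, 2 and 3. Among the primed libraries, those with a negative trend were those low in Rfc1. In naive 1, 2 and 3 the trend was 0.0262, -0.0479 and 0.0217, and Rfc1 was lowest in naive 1. The part of this trend in the Rfc1 values was not tested.

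**Figure D3:**
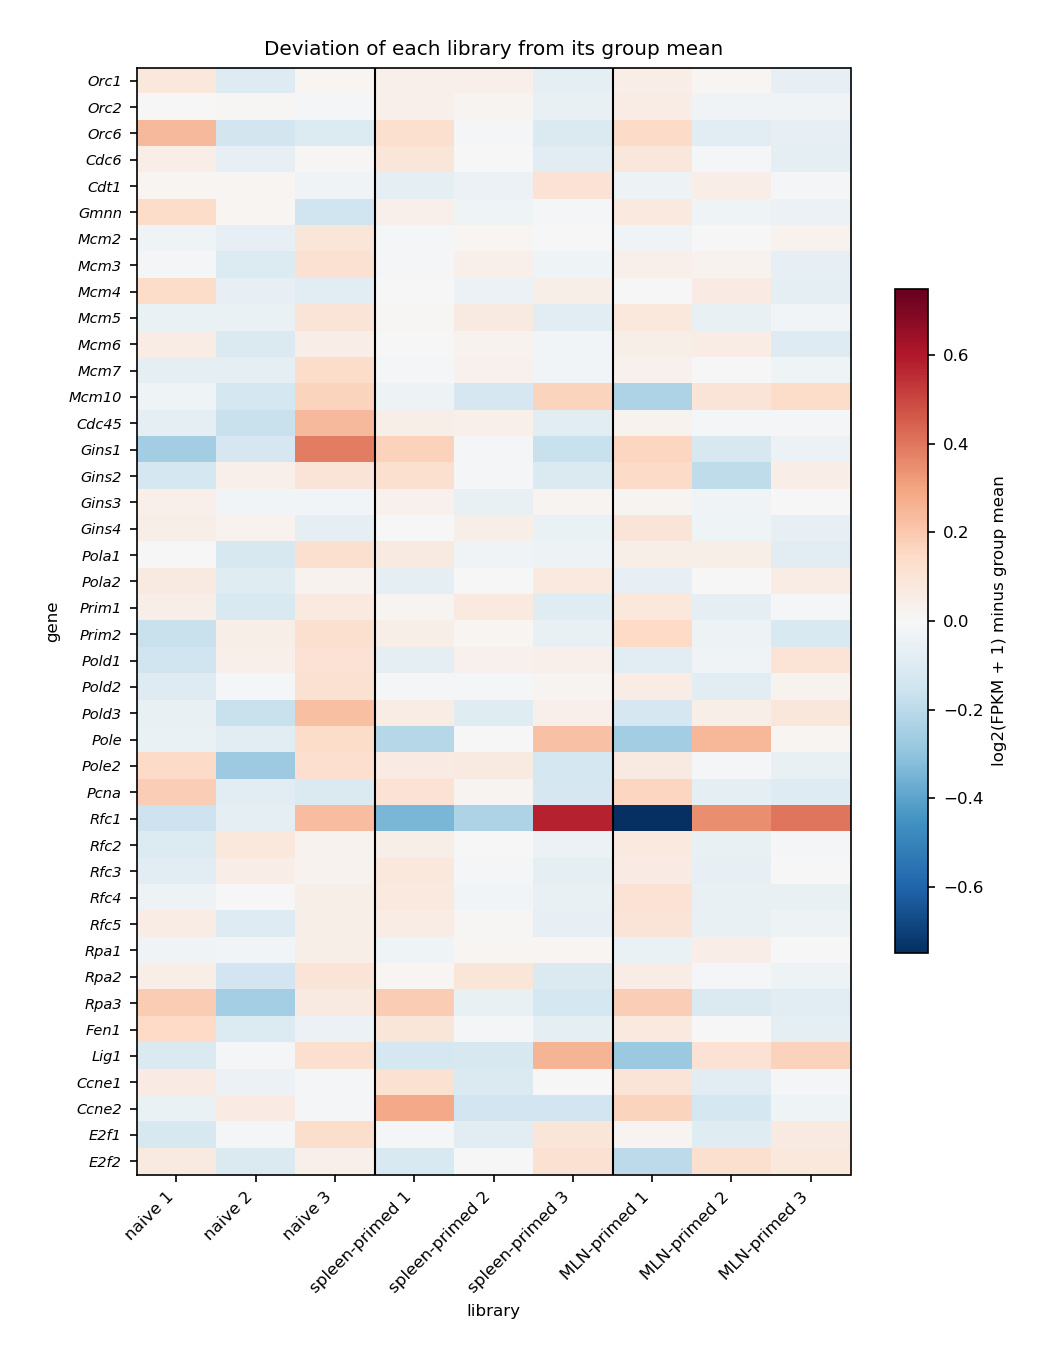
Deviation of each library from its group mean for the 42 replication genes, in log2(FPKM + 1), with libraries in columns and genes in rows. Rfc1 has the widest spread, from -0.75 in MLN-primed 1 to 0.57 in spleen-primed 3, and Lig1, Pole and Mcm10 also dip in MLN-primed 1.

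The single-strand binding and Okazaki fragment members rose with priming, and none of these members passed between the primed groups. The RPA genes, whose products coat unwound single-stranded DNA, rose in spleen-primed cells by 0.89 for Rpa1, 2.17 for Rpa2 and 1.71 for Rpa3 on the log2 scale. Rpa1 already stood at 80.8 ± 2.25 FPKM (mean ± SD, n = 3) in naive cells, second to Pcna there, and at 150 ± 3.11 in the spleen-primed and 168 ± 6.14 in the MLN-primed group. Its difference between the primed groups, 0.16 ± 0.06 (SE, adjusted p = 0.0574), missed the threshold, and it passed with no filter and after removal of the length trend (0.16 in both), and with spleen-primed 3 and MLN-primed 1 both left out (0.20). Fen1, the flap nuclease that trims Okazaki fragments, rose by 2.80 and 2.89 in spleen-primed and MLN-primed cells. Exons of Fen1 share 78.8% of their bases with the antisense gene Gm10143. Lig1, the ligase that seals the fragments, was at 6.34, 6.86 and 7.59 FPKM in the naive libraries, 90.9, 91.6 and 119 in the spleen-primed and 101, 132 and 138 in the MLN-primed ones. The primed groups overlapped, and the difference was 0.30 ± 0.14 (SE, adjusted p = 0.131). It passed without spleen-primed 3 (0.42), without MLN-primed 1 (0.44), without both (0.56) and with the replicate number as a block (0.30). Of the nuclease genes in the further lists, Dna2 was higher in MLN-primed cells by 0.43, without overlap (adjusted p = 0.00285, limma). Rnaseh2a at 0.05, Rnaseh2b at 0.09 and Rnaseh2c at -0.25 did not pass.

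Genes that control entry into S phase parted into cyclins, which differed between the primed groups, and E2F activators, which did not pass. Ccne1 (chr7:38097984-38107490), a cyclin E gene, was at 6.5, 5.98 and 6.12 FPKM in the naive libraries, 62.2, 53 and 57.1 in the spleen-primed and 99.2, 87.8 and 91.9 in the MLN-primed ones. Ccne2, its paralogue, was at 0.309, 0.413 and 0.341 FPKM in the naive libraries, 20.7, 15.1 and 15.1 in the spleen-primed and 27.7, 22.4 and 24 in the MLN-primed ones. Both were higher in all MLN-primed than in all spleen-primed libraries, by 0.69 ± 0.08 (SE, adjusted p = 2.67e-04) for Ccne1 and 0.53 ± 0.13 (SE, adjusted p = 0.0123) for Ccne2. The Ccne2 call ended without spleen-primed 2 (0.46) and with spleen-primed 3 and MLN-primed 1 both left out (0.37), and exons of Ccne2 share 17.4% of their bases with Ints8 on the opposite strand. The E2F activator gene E2f1 (chr2:154559400-154569892) was at 1.01, 1.16 and 1.39 FPKM in the naive libraries, 15.8, 14.9 and 17 in the spleen-primed and 16.8, 15.5 and 17.4 in the MLN-primed ones. E2f2 (chr4:136172274-136196057), another activator, was at 3.11, 2.64 and 3.02 FPKM in the naive libraries, 56.9, 61.7 and 67 in the spleen-primed and 50.5, 63.1 and 61.2 in the MLN-primed ones. Both rose over naive cells, E2f1 by 2.95 ± 0.09 (SE, adjusted p = 1.84e-09) and E2f2 by 4.0 ± 0.10 (SE, adjusted p = 4.01e-10) in spleen-primed cells, and their primed values overlapped, with differences of 0.06 ± 0.09 (SE, adjusted p = 0.681) and -0.09 ± 0.10 (SE, adjusted p = 0.558) between the primed groups.

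Ratios between members within a library were computed for 15 pairs or groups of genes, chosen after the values were seen and given with no test. MLN-primed values lay wholly above spleen-primed ones in 6 of them, wholly below in 2 and overlapped in 7, and 8 are described. Some set genes of unlike transcript length side by side, such as Pola2 (2406 bases) and Pola1 (5346 bases). The part of the length trend between libraries in these ratios was not tested. The ratio of Gmnn to Cdt1, the licensing inhibitor over its target, was 0.413, 0.374 and 0.34 in the naive libraries, 1.95, 1.82 and 1.66 in the spleen-primed and 1.98, 1.73 and 1.79 in the MLN-primed ones. Within each naive library Cdt1 exceeded Gmnn, within each primed library Gmnn exceeded Cdt1, and the ratios of the primed groups overlapped. The ratio of Orc1 to Orc2 was 0.0182, 0.00601 and 0.0137 in the naive libraries, 0.564, 0.57 and 0.555 in the spleen-primed and 0.629, 0.652 and 0.614 in the MLN-primed ones, with no overlap between groups. The ratio of Orc6 to Orc2 was 0.939, 0.696 and 0.723 in the naive libraries, 3.36, 3.09 and 3.05 in the spleen-primed and 3.05, 2.76 and 2.79 in the MLN-primed ones, and rose with priming. Its MLN-primed values lay just below the spleen-primed ones. The ratio of Pcna to the mean of Mcm2 to Mcm7 was 5.58, 4.94 and 4.35 in the naive libraries, 4.46, 4.09 and 3.84 in the spleen-primed and 4.03, 3.48 and 3.56 in the MLN-primed ones, and neighbouring groups overlapped. The ratio of Ccne1 to Ccne2 was 21, 14.5 and 17.9 in the naive libraries, 3.01, 3.5 and 3.79 in the spleen-primed and 3.59, 3.92 and 3.83 in the MLN-primed ones. Ccne1 was the higher cyclin E gene in all 9 libraries, and its lead was smaller in primed than in naive cells. The ratio of Pola2 to Pola1 was 6.31, 6.3 and 5.45 in the naive libraries, 1.5, 1.7 and 1.8 in the spleen-primed and 2.08, 2.17 and 2.47 in the MLN-primed ones. It fell from naive to spleen-primed libraries and lay higher in MLN-primed than in spleen-primed ones, without overlap. The ratio of Gins4 to the mean of Gins1, Gins2 and Gins3 was 16.6, 15.4 and 12.4 in the naive libraries, 1.59, 1.81 and 1.81 in the spleen-primed and 1.34, 1.49 and 1.3 in the MLN-primed ones, lowest in MLN-primed libraries. The ratio of Ccne1 to E2f2 was 2.09, 2.27 and 2.02 in the naive libraries, 1.09, 0.859 and 0.853 in the spleen-primed and 1.97, 1.39 and 1.5 in the MLN-primed ones, and MLN-primed libraries lay between the others.

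**Figure D4:**
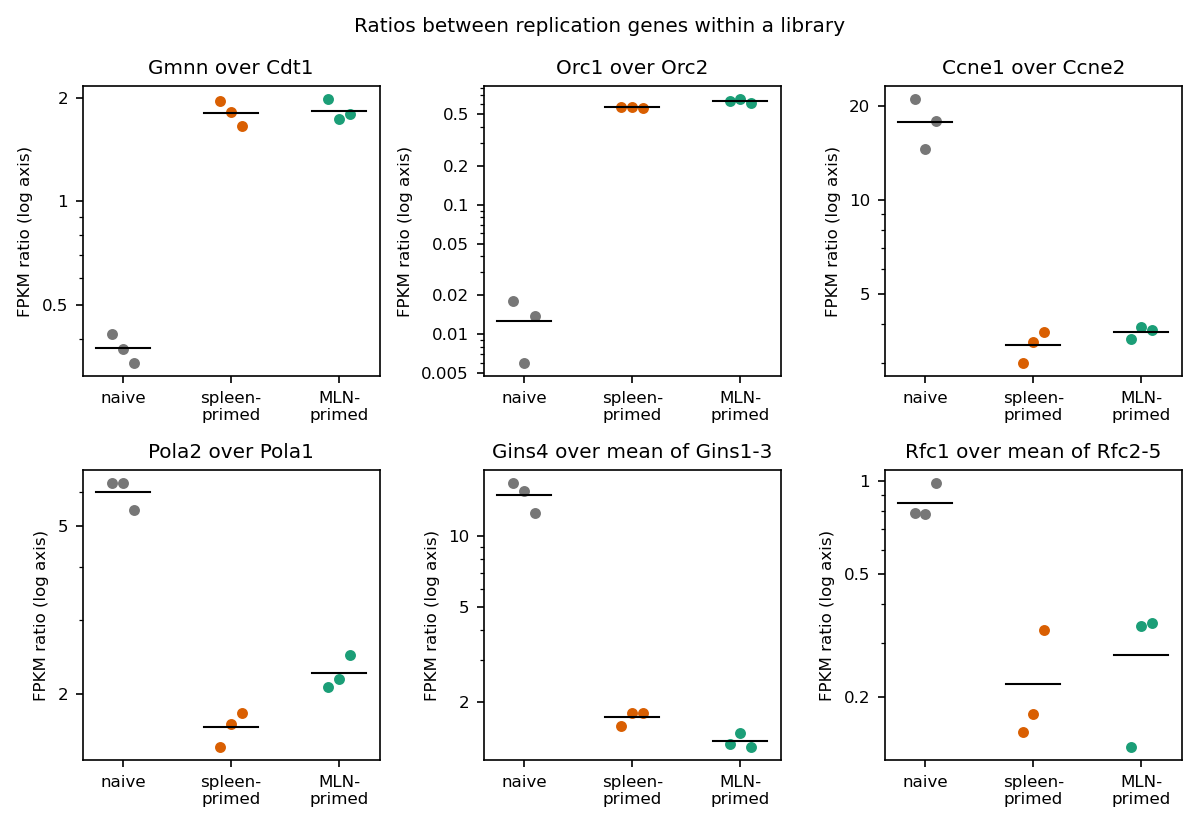
FPKM ratios between replication genes within each library on log axes, 1 point per library in naive, spleen-primed and MLN-primed groups, with group means as lines. Gmnn over Cdt1 averages 0.375 in naive and 1.81 in spleen-primed libraries, and Gins4 over the mean of Gins1 to Gins3 falls from 14.8 to 1.74.

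The median level of the members was 8.67 FPKM in the naive, 55.1 in the spleen-primed and 67.6 in the MLN-primed group. In naive cells 1 member exceeded 100 FPKM and 5 had a mean under 1 FPKM. In spleen-primed cells 11 and in MLN-primed cells 13 exceeded 100 FPKM, and 0 were under 1 FPKM in either.

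Other genes of DNA synthesis and the cell cycle were read from 5 further lists. Beside each count between the primed groups stand the 17.3% of all genes tested that were higher and the 13.1% that were lower, and beside each count against naive cells 43.1% higher in the spleen-primed and 45.5% in the MLN-primed group. Of 29 other replication genes, 10 (34.5%) were higher and 0 lower in MLN-primed cells than in spleen-primed ones (median log2 difference 0.23; 12 higher and 1 lower at an unadjusted p of 0.05, limma). Recql4, a helicase that acts at origin firing, was at 0.105, 0.157 and 0.295 FPKM in the naive libraries, 2.91, 3.36 and 4.27 in the spleen-primed and 4.98, 6.76 and 7.89 in the MLN-primed ones and had the largest difference of this list, 0.73 (adjusted p = 0.00682). Top1, a topoisomerase that relieves supercoils, followed at 0.57 (adjusted p = 0.0229), a call that ended with no filter and without spleen-primed 1, spleen-primed 2, MLN-primed 2 or MLN-primed 3 (0.45 to 0.87 over all alternatives). Against naive cells 26 were higher and 1 lower in the spleen-primed and 27 higher and 1 lower in the MLN-primed group. The checkpoint adaptor gene Clspn (3.84 and 4.10) and the nuclease gene Dna2 (3.37 and 3.80) rose most on the log2(FPKM + 1) scale, and Pold4, the small polymerase delta subunit, was the gene that fell (-0.53 and -0.92). Clspn, Dna2, Ticrr, Recql4 and Mcm8 stayed under 1 FPKM in every naive library and passed the filter through the primed groups, so they had to differ. Dscc1 and Atad5 reached 1 FPKM in only part of the naive libraries and needed primed libraries to pass as well, which favoured a rise. Of the other 22 genes 19 and 20 were higher.

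Among 12 genes of deoxynucleotide supply, 5 (41.7%) were higher and 1 (8.33%) lower in MLN-primed cells (median 0.23), where 17.3% and 13.1% of all genes were. Dctd, a deaminase on the way to thymidylate, was at 2.12, 2.59 and 3.1 FPKM in the naive libraries, 2.33, 2.22 and 2.12 in the spleen-primed and 6.73, 5.72 and 6.08 in the MLN-primed ones, and only MLN-primed libraries stood above the naive range (1.15, adjusted p = 9.92e-05). Nme1, a nucleoside diphosphate kinase, was higher by 0.55, and Samhd1, which degrades deoxynucleotides, was lower, at -0.40 (adjusted p = 0.00195 and 0.00971). Against naive cells 9 were higher and 1 lower in the spleen-primed and 10 higher and 2 lower in the MLN-primed group. The ribonucleotide reductase gene Rrm2 was at 2.62, 1.95 and 3.23 FPKM in the naive libraries, 348, 317 and 330 in the spleen-primed and 404, 399 and 373 in the MLN-primed ones, and with the thymidine kinase gene Tk1 it rose most on this scale (6.55 and 6.25 in the spleen-primed, 6.79 and 6.48 in the MLN-primed group). Rrm2b, the reductase subunit known from p53 responses, fell in both (-0.77 and -0.92), and Samhd1 fell in MLN-primed cells (-0.39). Tk1 also passed the filter through the primed groups.

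Of 17 other regulators of the G1/S step, 5 (29.4%) were higher and 3 (17.6%) lower in MLN-primed cells, beside 17.3% and 13.1% of all genes. The count higher was 3 without spleen-primed 2 or without MLN-primed 3, and 8 with spleen-primed 3 and MLN-primed 1 both left out. The median of 0.07 moved to 0.28 without MLN-primed 1, to 0.22 without spleen-primed 3, and to 0.01 to 0.03 without any other single primed library. Cdc25a, a phosphatase that activates cyclin-dependent kinases, was higher by 0.60 (adjusted p = 0.00307), and Tfdp1, the dimer partner of E2F proteins, by 0.52 (adjusted p = 0.00316). Cdkn1b, which encodes the kinase inhibitor p27, was at 47.5, 43.2 and 46.8 FPKM in the naive libraries, 18.5, 19.2 and 18.4 in the spleen-primed and 11.5, 13.2 and 12.4 in the MLN-primed ones. It was lower in both primed groups than in naive cells (-1.25 and -1.81) and lower again in MLN-primed against spleen-primed cells (-0.56, adjusted p = 0.000526), with no overlap. Rbl2, a retinoblastoma family gene of resting cells, was also lower between the primed groups (-0.43, adjusted p = 0.013). So was Rbl1 of the same family (-0.42, adjusted p = 0.00301), but its primed values lay above its naive ones. Rbl1 was at 12.7, 11.9 and 13 FPKM in the naive libraries, 31.4, 32.1 and 31.5 in the spleen-primed and 23.5, 25.5 and 21.5 in the MLN-primed ones. Against naive cells 13 were higher and 4 lower in both primed groups. E2f7, E2f8, Skp2 and Cdkn1a stayed under 1 FPKM in every naive library, passed the filter through the primed groups and had to differ. E2f3, at 1.7, 0.911 and 1.32 FPKM in the naive libraries, needed primed libraries to pass as well, which favoured a rise. Of the other 12 genes 8 were higher. The largest rises on the log2(FPKM + 1) scale, where changes of low genes appear too small, were those of E2f8, a repressor of the E2F family (4.61 and 4.80), and Fbxo5, an inhibitor of the anaphase-promoting complex (3.71 and 3.60), and Tfdp2 fell (-1.0 and -1.09).

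Chromatin genes of the fork and mitotic genes differed in the share that passed between the primed groups, a contrast that was not tested. Of 11 genes of chromatin assembly and methylation at the fork, 5 (45.5%) were higher and 0 lower in MLN-primed cells, beside 17.3% and 13.1% of all genes (median 0.41; 7 higher and 0 lower at an unadjusted p of 0.05, limma). Hells, a chromatin remodeller, was higher by 0.73 and Nasp, a histone chaperone, by 0.56 (adjusted p = 0.00107 and 0.00251). Against naive cells 10 were higher in the spleen-primed and 11 in the MLN-primed group and 0 lower in either, led by Uhrf1, which guides maintenance methylation (4.96 and 5.45), and the histone chaperone gene Asf1b (4.84 and 4.73). Chaf1a reached 1 FPKM in naive 3 alone and needed primed libraries to pass the filter, which favoured a rise over naive. Of 20 mitotic genes, 1 (5%) was higher and 0 lower in MLN-primed cells (median 0.13; 3 higher and 1 lower at an unadjusted p of 0.05). That median ran from 0.01, without MLN-primed 3, to 0.18, without spleen-primed 3. Some mitotic genes spread widely between libraries, as Mki67 did at 13.4, 22.4 and 87.1 FPKM in the spleen-primed and 8.32, 76 and 84.1 in the MLN-primed ones. Its difference was 0.35 ± 0.85 (SE) and that of Cenpe 0.35 ± 0.57, where the widest fork gene, Dnmt1, was at 0.23 ± 0.30. The part of this spread in the share of mitotic genes that passed was not tested. Against naive cells 14 of the 20, among them Mki67, Ccna2 and Bub1, did not reach 1 FPKM in all naive libraries. These needed primed libraries to pass the filter, which favoured a rise, and forced one where every naive value was under 1 FPKM. The other 6 were higher in both primed groups, with medians of 4.82 and 5.03. The gene that passed was the checkpoint kinase gene Bub1 (0.26, adjusted p = 0.0262), called in 12 of 20 alternative fits. Its call ended without spleen-primed 2, spleen-primed 3, MLN-primed 1 or MLN-primed 2 (0.20 to 0.30 over all alternatives). Under median-of-ratios scaling and under quantile normalisation 0 mitotic genes were higher and 1 lower, and with spleen-primed 3 and MLN-primed 1 both left out 6 were higher and 0 lower. Birc5, which encodes survivin, was at 1.92, 1.52 and 2.44 FPKM in the naive libraries, 378, 351 and 349 in the spleen-primed and 374, 358 and 362 in the MLN-primed ones, changes of 6.94 and 6.96 over naive cells. Ccna2, a cyclin gene of S and G2 phase, rose by 6.70 and 6.73.

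**Figure D5:**
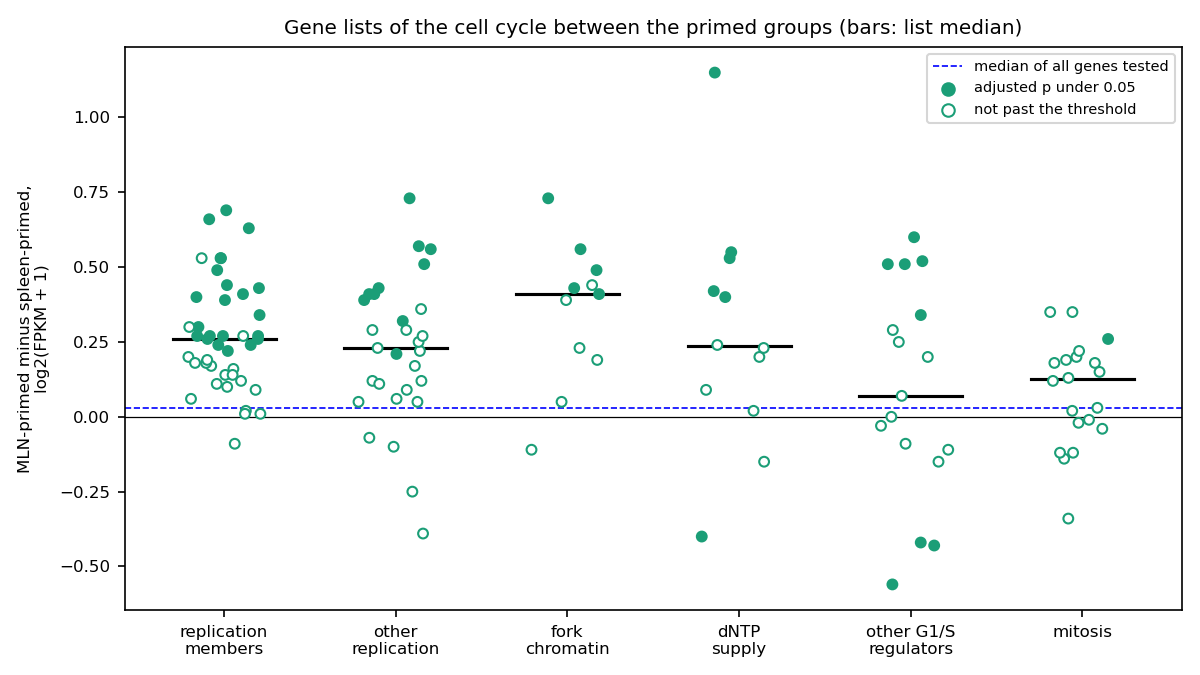
Difference between MLN-primed and spleen-primed cells in log2(FPKM + 1) for the 42 replication genes and 5 further lists, 1 point per gene, with list medians as bars and the median of all genes tested as a dashed line. Filled points passed an adjusted p of 0.05, which were 22 of 42 replication members and 1 of 20 mitotic genes.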

How the data were processed

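The labels' protocols name the RNeasy Plus Micro kit for RNA extraction and the TruSeq Stranded mRNA kit for the libraries. The deposited values are FPKM, which the authors made with TopHat and Cufflinks against mm10, per the submitters' processing notes. Tool versions, filters and whether strand was used are not given in the sources that were used here. Another deposited table held identical bytes and was set aside. Of 24067 rows, 131 had no gene symbol (0.0479% of the FPKM) and were dropped, leaving 23936 genes.

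Values were taken unscaled as log2(FPKM + 1), on which changes of low genes appear too small. FPKM keep no read numbers and are relative to the library, so very abundant genes can move the rest. The tests covered the 10185 genes that reached 1 FPKM in 3 or more libraries. A single limma-trend fit (limma 3.58.1, R 4.3.3) used all 9 libraries, with two-sided p-values adjusted by Benjamini-Hochberg across every gene tested and called at 0.05. The script was tested on simulated data with independent errors and no trend with transcript length. Recovery was required there only for changes larger than those of the members between the primed groups. Tables and figures came from Python 3.11.15 with numpy 2.4.6, pandas 2.3.3 and matplotlib 3.10.9.

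Members and lists were chosen with earlier results of these data known, so their counts are not independent evidence. All members are accounted for by role. Values of every library are given for members past the threshold between the primed groups and for Pcna, Mcm2 to Mcm7, Cdt1, Gmnn, Ccne1, Ccne2, E2f1 and E2f2. From each further list, up to 2 genes that rose most and up to 2 that fell most among those past the threshold are named. Rfc1, Lig1, Cdc45, Pola1, Gins4 and Rpa1 were given in more detail after their values were seen. Differences of Orc3, Orc4, Orc5, Pole3, Pole4, Dna2, Rnaseh2a, Rnaseh2b, Rnaseh2c and Rbl1 between the primed groups were added in the same way. Gene positions come from RefSeq on GRCm38.p6, and transcript lengths (for 99.7% of tested genes), exon overlap and near copies (at least 95% identity over at least 200 bases) from GENCODE M21 on the same assembly.

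The alternative fits changed 1 choice each: the pseudocount (0.1), the filter (none, or 5 FPKM in 3 libraries), the scaling (median of ratios, or quantiles), the variance model (no trend, or robust), the libraries fitted (both groups compared alone, or each library removed in turn), a replicate block, and the removal of a length trend from each library. In 1 more fit the libraries spleen-primed 3 and MLN-primed 1, outermost in length trend, were removed together.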

Additional observations from a re-analysis of the deposited data

How the results depend on the processing

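In both comparisons with naive cells the counts of members called held in all 20 alternative fits, except that Rfc1 was lost in 5 of them in MLN-primed cells. Between MLN-primed and spleen-primed cells no member was called lower in any fit, and 35 of 42 members had a positive difference in all of them. The count of 22 members higher fell to 11 under median-of-ratios scaling, to 15 under quantile normalisation and to 17 with spleen-primed 3 and MLN-primed 1 both left out, where 13 of the 22 were kept. Leaving out 1 library at a time gave 13 to 22, lowest without spleen-primed 2. Without MLN-primed 2 it was 15, and the median difference stayed at 0.22 to 0.27. Other settings gave 20 to 23. Deviations of libraries with the same number correlated over 0.1 in 7 of 9 pairs, including all 3 between naive and spleen-primed, and ran from -0.24 to 0.64. Both pairs of MLN-primed 2 were at -0.24, and whether the numbers pair the samples is not settled. With the replicate number as a block the counts were 23, 41 and 42 for MLN-primed against spleen-primed, spleen-primed against naive and MLN-primed against naive. Over members and fits, 756 values between the primed groups kept their side of the threshold, 73 no longer passed and 11 newly passed, and no called value changed sign. The cause of these changes was not tested. With unknown read depth, the counting error of low naive values cannot be given.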
